A study of Mus musculus with 74 samples.

Results

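White adipose tissue of 4 male B6C3F1 mice given fenretinide for 29 days was compared with white adipose tissue of 4 male B6C3F1 mice given the vehicle for 29 days. These 8 arrays of 74 in the study were taken by their titles, which name the tissue, the agent, the day and the mouse. Fenretinide mice received 500 mg/kg daily in the diet, and for vehicle mice the labels give the dose as none. The study tested fenretinide, troglitazone and Elmiron for proliferative or hypoxic changes in tissues where hemangiosarcoma, a tumour of vessel-lining cells, arises. It used about double the highest carcinogenicity dose. The labels do not name the fat depot, the vehicle or the age of the mice. Each mouse gave 1 array of total RNA extracted from whole tissue. Nothing in the labels ties a vehicle mouse to a fenretinide mouse.

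Fenretinide is a synthetic derivative of vitamin A. Retinoic acid, the active form of the vitamin, binds nuclear receptors of the RAR family, which pair with RXR and switch on genes such as those for the enzymes that break retinoic acid down. White fat stores triglyceride, secretes hormones such as leptin, and holds vessels, fibroblasts, progenitors and macrophages beside the adipocytes. Fenretinide is also known as an inhibitor of dihydroceramide desaturase, an enzyme of ceramide synthesis.

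Values are log2 intensities of 1 probe set per gene, so a difference of 1 is a doubling. Where several values of a group follow one another, they belong to vehicle mice 81, 83, 85 and 86 and to fenretinide mice 91, 93, 94 and 95. A change is the mean of the 4 fenretinide mice minus the mean of the 4 vehicle mice, given with the standard error of the limma fit. A number in parentheses after a change with its error is its adjusted p, and a pair in parentheses is a change and its adjusted p. A gene was called where its Benjamini-Hochberg adjusted p over all 18193 genes was below 0.05. Of these genes, 244 were called (1.34%), 75 of them higher (0.412%) and 169 lower (0.929%) after fenretinide. The groups did not overlap at 1591 genes (8.75%), and the median change of all genes was -0.02. These shares are given below beside the counts of gene lists. All the lists were chosen with earlier results of these data known, so their counts do not measure an excess over all genes.

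**Figure D1:**
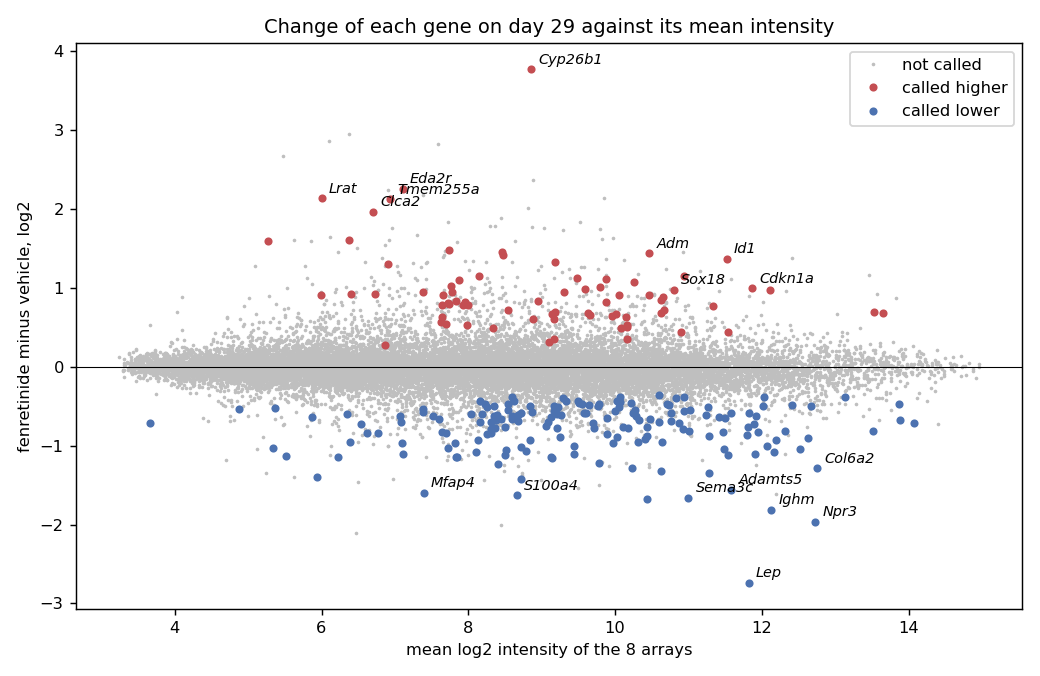
Change of each gene after 29 days of fenretinide (vertical axis, log2) against the mean log2 intensity of the 8 arrays (horizontal axis), with 75 genes called higher in red, 169 called lower in blue and the rest in grey. Cyp26b1 stands at the top with a change of 3.77, and Lep at the bottom with -2.74.

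The white adipocyte gene Adipoq, which encodes the hormone adiponectin, lay near the bright end of all 8 arrays, between 14.77 and 14.97. Several arrays also carried genes of other tissues. Skeletal muscle genes, averaged over 13 measured genes relative to the vehicle mean, stood at 2.14 and 0.70 in vehicle mice 85 and 86 and at 1.07 and 2.99 in fenretinide mice 91 and 93, against -1.60 to -1.36 in the other 4 mice. The brown fat gene Ucp1 was high in the same mice, with values of 5.81, 5.13, 13.44 and 11.69 under vehicle and 12.82, 14.66, 7.51 and 7.56 under fenretinide. Liver genes were highest in fenretinide mouse 95 (3.34), vehicle mouse 86 (2.13) and fenretinide mouse 93 (1.18), and between -1.18 and -0.08 in the other 5 mice, on the same scale over 16 genes. No member of the muscle, brown fat or liver lists was called. Their medians were 0.33, 0.84 and 0.74. Without fenretinide mouse 93 those of the muscle and brown fat lists were -0.70 and 0.19, and without fenretinide mouse 95 that of the liver list was -0.11. Because both groups hold such arrays, several results below are also given without mice 85, 86, 91 and 93, a setting chosen after the values were seen. That fit called 64 genes, 9 higher and 55 lower, and all 244 genes kept their direction in it. At a gene whose groups do not overlap, leaving out mice cannot turn the direction, so the kept direction is no test there. Leaving out 1 mouse at a time gave between 51 calls (without vehicle mouse 83) and 237 (without fenretinide mouse 91). The call counts were 64, 93 and 234 without vehicle mouse 81, 85 or 86, and 138, 55 and 89 without fenretinide mouse 93, 94 or 95. Calls therefore depended on single mice, and 36 of the 244 genes, 16 higher and 20 lower, were called in all 8 of these fits. With the 8 arrays of day 29 fitted alone, without those of day 15, 43 of the 244 genes were called. Of the 90 called genes described with a change 25 were among them, namely Cyp26b1, Lrat, Eda2r, Id1, Tbx3, Ier5, Sox18, Agtr1a, Mmp9, Tmem255a, Tmem178, Fcna, BC028528, Adamts5, Col6a1, Col6a2, Mfap4, Nid2, S100a4, Sema3c, Cd209d, F13a1, Cbr2, Pdlim2 and Cdkn2b. The other 65 were not.

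The largest rise of all was in a gene that handles retinoids. Cyp26b1, whose enzyme breaks down retinoic acid, rose 13.7-fold, and Lrat, whose enzyme stores retinol as its ester, rose 4.41-fold. Rarb, the gene of retinoic acid receptor beta, rose 1.88-fold. Of 24 measured genes of retinoid breakdown, storage and signalling these 3 were called higher, against 0.412% of all genes, and none lower. The groups did not overlap at 5 members, against 8.75% of all genes, and the median change was 0.11.

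The stretches before the start of 4 genes are shown because nuclear receptors of the retinoic acid family bind a repeated half-site next to several of their target genes, and because p53, treated further on, binds a repeated half-site too. The 250 bases before each start site come from the RefSeq table of build GRCm38.p6, 5′ to 3′ along the gene. Capitals in Rarb and Cyp26a1 mark GNTCA, 6 bases, GNTCA, searched on both strands, and capitals in Cdkn1a mark CATG, 6 bases, CATG, which reads the same on both. Cyp26b1, shown for its large rise, has no capitals. The coordinates are chr6:84593811-84594060, minus strand for Cyp26b1, chr14:16575477-16575726, minus strand for Rarb, chr19:37697558-37697807, plus strand for Cyp26a1, and chr17:29090729-29090978, plus strand for Cdkn1a.
Cyp26b1: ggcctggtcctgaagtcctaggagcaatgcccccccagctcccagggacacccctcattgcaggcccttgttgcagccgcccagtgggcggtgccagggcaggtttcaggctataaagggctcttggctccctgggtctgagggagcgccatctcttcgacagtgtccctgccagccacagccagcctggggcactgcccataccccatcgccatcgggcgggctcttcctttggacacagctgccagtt
Rarb: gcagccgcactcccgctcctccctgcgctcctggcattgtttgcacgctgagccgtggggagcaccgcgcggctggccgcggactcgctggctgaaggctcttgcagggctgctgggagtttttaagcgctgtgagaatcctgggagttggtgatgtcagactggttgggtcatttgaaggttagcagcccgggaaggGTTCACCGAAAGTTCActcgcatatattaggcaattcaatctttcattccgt
Cyp26a1: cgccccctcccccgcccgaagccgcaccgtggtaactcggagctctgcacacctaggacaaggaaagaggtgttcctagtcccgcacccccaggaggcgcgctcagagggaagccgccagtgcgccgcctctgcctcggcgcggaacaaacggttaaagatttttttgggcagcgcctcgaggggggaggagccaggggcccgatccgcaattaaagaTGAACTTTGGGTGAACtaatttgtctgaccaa
Cdkn1a: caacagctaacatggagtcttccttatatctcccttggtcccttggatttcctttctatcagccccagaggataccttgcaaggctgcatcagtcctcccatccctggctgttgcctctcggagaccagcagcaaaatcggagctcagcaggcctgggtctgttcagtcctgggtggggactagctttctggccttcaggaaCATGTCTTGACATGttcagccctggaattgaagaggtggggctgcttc
The GNTCA pair stood 52 to 37 bases before the start of Rarb and 32 to 17 bases before that of Cyp26a1, where it was read from the opposite strand. These letters were not in the windows of Cyp26b1 and Lrat. Over all 32851 windows of the table, each reaching from 250 bases before to 50 after a start site, 283 (0.861%) held the pair. A window was listed for 185 of the 244 called genes. Of the 65 windows of genes called higher 1 held the GNTCA pair (1.54%), that of Rarb, and of the 174 windows of genes called lower 1 did (0.575%), that of Lgmn. The CATG pair stood 48 to 35 bases before a start of Cdkn1a and was in 234 of all windows (0.712%), in 1 of the 65 of genes called higher (1.54%), that of Cdkn1a, and in 1 of the 174 of genes called lower (0.575%), that of Wdsub1. Another listed window of Cdkn1a did not hold the CATG pair, and neither did the windows of the p53 targets Eda2r, Mdm2 and Sesn1. A match describes the letters, and binding was not measured.

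Cyp26b1 measured 6.53, 7.17, 7.21 and 6.94 in the vehicle mice and 11.07, 10.35, 10.61 and 10.93 in the fenretinide mice. All 4 fenretinide mice were far above all vehicle mice, and mouse 93 was the lowest of them. The change was 3.77 ± 0.18 (adjusted p = 4.53e-07), and 3.92 without mice 85, 86, 91 and 93. Lrat measured 4.81, 5.22, 4.96 and 4.74 under vehicle, near the dim end of the array, and 7.28, 6.63, 7.38 and 7.0 under fenretinide. Its groups lay well apart as well. The change was 2.14 ± 0.16 (adjusted p = 4.73e-05), although 1 of its 2 probe sets was called when tested alone. Rarb measured 6.99, 7.0, 7.38 and 7.41 under vehicle and 8.05, 8.42, 7.85 and 8.10 under fenretinide. The groups were close but did not overlap, and mouse 93 was the highest. The change was 0.91 ± 0.17 (adjusted p = 0.0244), and this call was lost without mouse 81, 83, 93 or 95 (adjusted p up to 0.0709, without 83). The calls of Cyp26b1 and Lrat held whichever mouse was left out.

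No other retinoid gene was called. Cyp26a1, the sister enzyme of Cyp26b1, measured 7.26, 6.39, 6.69 and 6.72 under vehicle and 6.67, 8.23, 7.08 and 10.37 under fenretinide, so that mouse 95 alone was above 9 and mice 91 and 94 lay among the vehicle mice. Its change was 1.32 ± 0.60 (adjusted p = 0.330), and 0.56 without mouse 95. Mouse 95 also had the highest liver gene level, and its part in the Cyp26a1 value was not tested. Rarres1 stood at 1.23 (adjusted p = 0.150) and Rdh10, a retinol dehydrogenase, at 0.68 (0.183), both without overlap of the groups. Aldh1a1, which makes retinoic acid, stood at -0.54 (0.107) and was called without vehicle mouse 86 (-0.68, 0.0357). Dhrs3 (0.12), the binding protein genes Crabp2 (0.09) and Rbp4 (-0.24) and the retinol uptake receptor gene Stra6 (0.24) had adjusted p-values from 0.378 to 0.872.

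**Figure D2:**
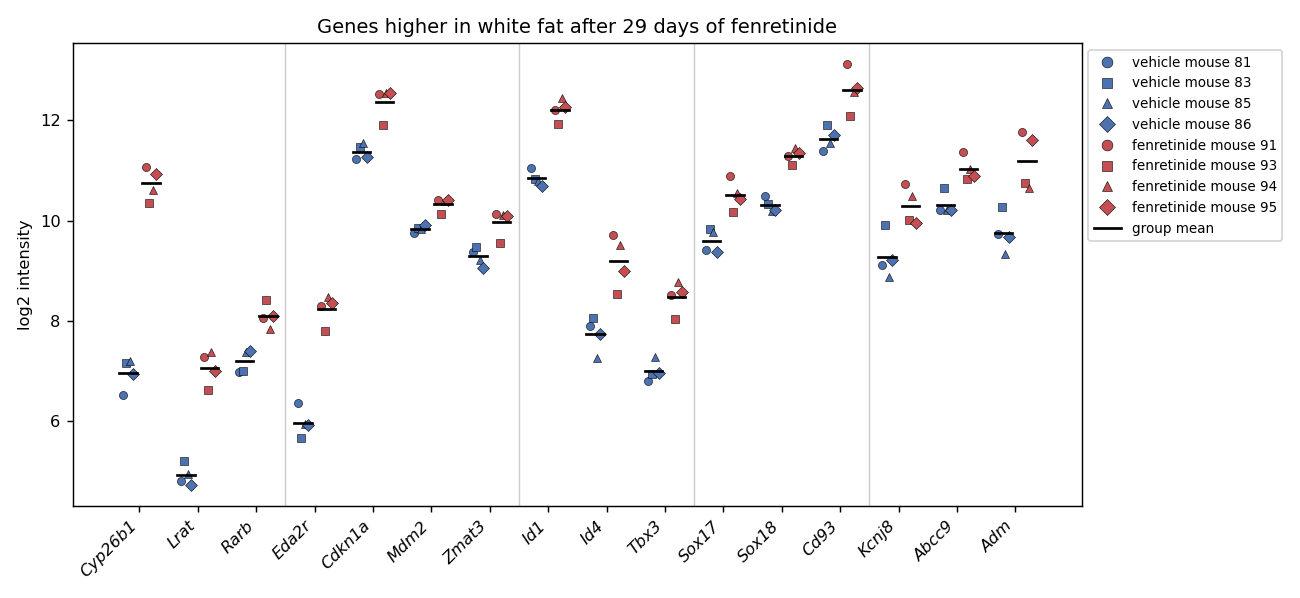
Log2 intensity (vertical axis) of 16 genes called higher, in each of the 4 vehicle mice (blue) and the 4 fenretinide mice (red), with a shape per mouse and a bar at each group mean. No gene shown has overlapping groups, and fenretinide mouse 93 is the lowest of its group at every gene shown except Rarb, Kcnj8 and Adm.

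Some genes that p53 is known to induce rose, led by the receptor gene Eda2r and the cell cycle inhibitor gene Cdkn1a. Of 22 measured p53 targets, 4 were called higher and 1 lower, against 0.412% and 0.929% of all genes. Of the 22, 13 did not overlap between groups, against 8.75% of all genes, and the median change was 0.34. With 1 mouse left out there were 1 to 5 calls. Eda2r, a receptor of the tumour necrosis factor family, measured 6.36, 5.67, 5.95 and 5.93 under vehicle and 8.31, 7.80, 8.48 and 8.37 under fenretinide. No fenretinide mouse came within 1 unit of a vehicle mouse. Its change was 2.26 ± 0.19 (adjusted p = 0.000121). Cdkn1a, which encodes p21, measured 11.22, 11.46, 11.54 and 11.27 under vehicle and 12.51, 11.89, 12.54 and 12.53 under fenretinide. Mouse 93 stood apart below the other 3 fenretinide mice, which lay within 0.03 of one another. The change was 1.0 ± 0.17 (adjusted p = 0.0206). Zmat3, an RNA-binding protein gene, changed by 0.69 ± 0.13 (0.0323) and Mdm2, the ligase that degrades p53, by 0.50 ± 0.10 (0.0400). Mouse 93 was again the lowest at both, and 2 of the 3 probe sets of Mdm2 ran in this direction. Sesn1, a sestrin gene that p53 can induce, went the other way, with 10.13 to 10.75 under vehicle and 9.34 to 10.06 under fenretinide, a change of -0.89 ± 0.19 (0.0415), and Sesn3, another sestrin, fell by 0.43 (0.0196).

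Among the p53 targets that were not called, Trp53inp1 stood at 0.76 (adjusted p = 0.110) with mouse 94 far above the others, and Plk2 at 0.85 (0.122) with mouse 91 above the others. The call of Eda2r held whichever mouse was left out. The other 4 calls of the list did not, and were lost for Cdkn1a without mouse 81, 83, 94 or 95 (adjusted p up to 0.0619, without 94), Zmat3 without any mouse other than 93 (adjusted p up to 0.0872, without 85), Mdm2 without any mouse other than 93 (adjusted p up to 0.0983, without 81) and Sesn1 without any mouse other than 86 or 94 (adjusted p up to 0.104, without 83). Sesn3, which is not in the list, was not called without mouse 81, 83 or 94 (adjusted p up to 0.0594, without 83). Without mice 85, 86, 91 and 93 the changes of Cdkn1a and Zmat3 were 1.19 (0.0707) and 0.67 (0.0623), neither of them called.

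Ccnd1, which encodes cyclin D1, rose, and no other gene of the cell cycle list was called. It measured 9.19, 9.17, 9.03 and 9.89 under vehicle and 10.85, 9.88, 10.30 and 10.70 under fenretinide, where mouse 93 lay just below vehicle mouse 86. The change was 1.11 ± 0.21 (adjusted p = 0.0322). The call was lost without any mouse other than 86 or 93 (adjusted p up to 0.0893, without 85). The list holds 35 measured cell cycle and replication genes, so that 1 of 35 was called, against 1.34% of all genes. Its median change was -0.13, which turned to 0.034 without vehicle mouse 86. Mki67, a gene active in dividing cells, measured 7.49, 7.73, 8.12 and 9.90 under vehicle and 8.79, 7.70, 8.44 and 7.87 under fenretinide. Vehicle mouse 86 was the highest and the groups overlapped widely, with a change of -0.11 ± 0.47 (0.960), which was 0.42 without that mouse.

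Id1 and Id4, whose proteins block basic helix-loop-helix transcription factors, were both higher. Id1 measured 11.06, 10.82, 10.79 and 10.69 under vehicle and 12.20, 11.93, 12.44 and 12.26 under fenretinide, and the groups lay clearly apart. Its change was 1.37 ± 0.16 (adjusted p = 0.00217). Id4 measured 7.89, 8.06, 7.27 and 7.73 and 9.71, 8.53, 9.52 and 8.99, with mouse 93 nearest to the vehicle mice and a change of 1.45 ± 0.25 (0.0196). They were the 2 called genes among 23 measured members of BMP and Id signalling, against 1.34% of all genes. The median of the list was 0.06. Id2 stood at 0.20 (0.775) and Id3 at 0.53 (0.325). Tbx3, a T-box transcription factor gene, rose by 1.48 ± 0.25 (0.0192). The call of Id1 held whichever mouse was left out, and calls were lost for Id4 without mouse 94 (adjusted p = 0.0587) and Tbx3 without mouse 81, 83 or 94 (adjusted p up to 0.0594, without 83).

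Of 21 measured immediate early genes, which respond first to a stimulus, Ier5 alone was called, against 1.34% of all genes. In this list 19 had a change above 0, and the median was 0.63. Ier5 changed by 1.33 ± 0.22 (adjusted p = 0.0159) and Maff, a small Maf transcription factor gene, by 1.42 ± 0.23 (0.0159). Mouse 91 was the highest of its group at both, at 10.04, 8.88, 8.68 and 9.10 for Maff against 7.67 to 7.88 under vehicle. Nfkbia, which encodes the inhibitor of NF-kappa-B, changed by 0.68 ± 0.15 (0.0459). The related gene Ier5l changed by 0.78 ± 0.14 (0.0245), the growth factor gene Hbegf by 0.55 ± 0.11 (0.0353), and Smad3, a signal carrier of TGF-beta, by 0.66 ± 0.15 (0.0496). When tested alone, 1 of the 5 probe sets of Nfkbia was called and no probe set of Smad3. The call of Nfkbia was lost with median centring or the mean of its probe sets, and that of Smad3 with median centring. Nfkbia was the 1 called gene of 24 inflammatory cytokine and adhesion genes, against 1.34% of all genes. The median of the 24 was 0.38, and 0.15 without fenretinide mouse 91. The calls were lost for Ier5 without mouse 83 (adjusted p = 0.0536), Maff without mouse 83 (adjusted p = 0.0537), Ier5l without mouse 81, 83, 85 or 95 (adjusted p up to 0.0715, without 85), Hbegf without any mouse other than 95 (adjusted p up to 0.0893, without 85), Nfkbia without any 1 of the 8 mice (adjusted p up to 0.119, without 85) and Smad3 without any 1 of the 8 mice (adjusted p up to 0.127, without 85).

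Several immediate early and inflammatory genes that were not called varied widely among the fenretinide mice. Il6, the gene of interleukin 6, measured 4.23, 3.94, 4.15 and 4.26 under vehicle and 9.22, 7.04, 4.18 and 6.81 under fenretinide. Mouse 91 was highest, mice 93 and 95 lay between, and mouse 94 stayed with the vehicle mice. The change was 2.67 ± 0.92 (adjusted p = 0.182). The chemokine genes Ccl2 (6.83 to 11.72 under fenretinide, 6.77 to 8.55 under vehicle) and Cxcl2 (4.71 to 9.39, 4.39 to 5.11) ran the same way, as did the acute phase gene Saa1 (4.63 to 10.40, 4.53 to 5.10). In all of them mouse 91 was the highest and mouse 94 the lowest fenretinide mouse. Their changes were 1.88 ± 0.88 (0.345), 2.86 ± 0.98 (0.175) and 2.95 ± 0.85 (0.111). Socs3, an inhibitor of cytokine signalling, stood at 2.36 (0.189) and the transcription factor gene Junb at 1.78 (0.150). The groups did not overlap at the adhesion gene Icam1 (1.73, 0.166) or at S100a9, a neutrophil gene (2.18, 0.0908), and neither was called. Without fenretinide mouse 94 Saa1 passed the threshold, with a change of 4.02 (adjusted p = 0.00707). High values were not confined to fenretinide mice. Vehicle mouse 50 of day 15, also in the fit, stood at 7.70 for Il6, 9.53 for Ccl2 and 9.08 for Cxcl2. Vehicle mice 48 and 49 of that day were at 4.08 and 4.08, 6.43 and 6.93, and 4.88 and 5.33. At Saa1 mouse 50 was at 5.79, against 4.82 and 5.15.

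**Figure D3:**
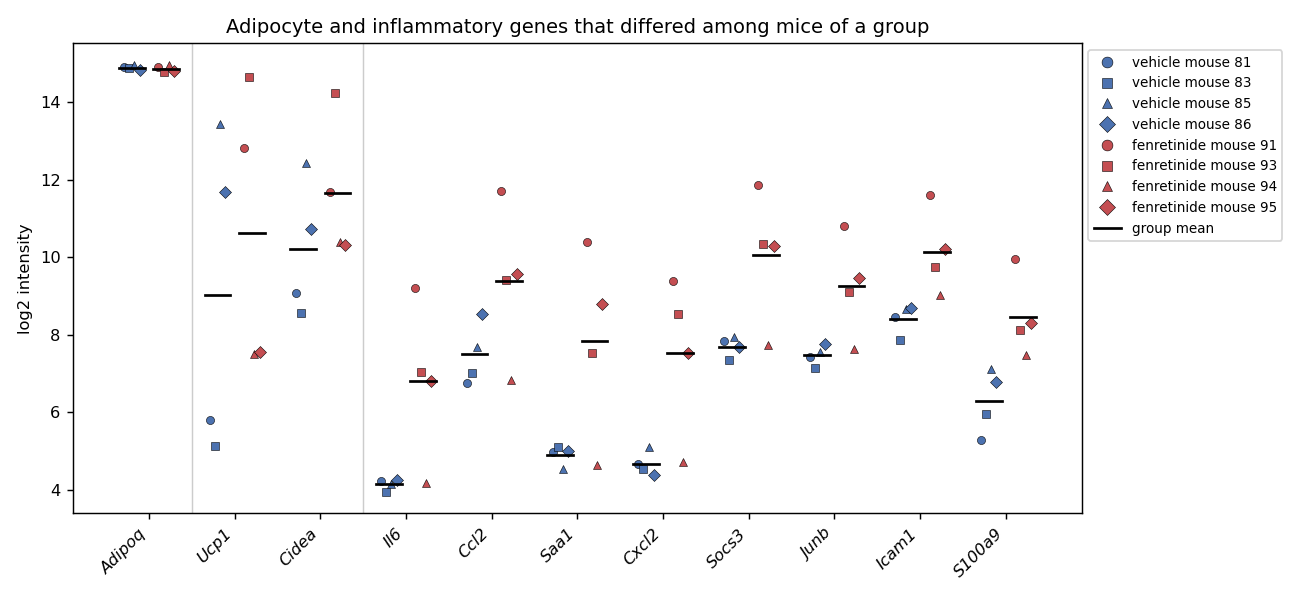
Log2 intensity (vertical axis) of Adipoq, of the brown fat genes Ucp1 and Cidea, and of 8 inflammatory or immediate early genes, by mouse and group as marked in the legend, with bars at the group means. Adipoq stays between 14.77 and 14.97 on all 8 arrays, Ucp1 spreads from 5.13 to 14.66, and mouse 94 lies below the other fenretinide mice at all 8 genes to the right.

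Of 27 measured genes of endothelial cells, which line the vessels, 3 rose, against 0.412% of all genes. The change was above 0 at 25 of them, with a median of 0.38 against -0.02 over all genes. The groups did not overlap at 8 of the 27, against 8.75% of all genes. The median was 0.23 without fenretinide mouse 91, whose mean over the list was the highest. Leaving out 1 mouse at a time gave 1 to 3 calls. The called genes were Sox17 and Sox18, transcription factors of vessel-lining cells, and Cd93, a surface receptor. Sox18 measured 10.49, 10.34, 10.19 and 10.21 under vehicle and 11.28, 11.10, 11.44 and 11.34 under fenretinide, with a tight fenretinide group above all vehicle mice of day 29. Its change was 0.98 ± 0.15 (adjusted p = 0.0143). Sox17 changed by 0.91 ± 0.16 (0.0206) and Cd93 by 0.97 ± 0.21 (0.0423), and mouse 91 was the highest and mouse 93 the lowest at both. Of the 5 probe sets of Cd93, 4 ran in this direction. Their relative Sox7 stood at 0.35 (0.675). The pan-endothelial genes Pecam1 (0.22, 0.637) and Kdr (0.22, 0.644) were not called, nor were Robo4 (0.77, 0.0676) and Emcn (0.60, 0.0770). Plvap, a gene of vessel fenestrae, ran the other way at -0.89 (0.0636), with every fenretinide mouse (9.25 to 9.35) below every vehicle mouse (9.86 to 10.67). In whole tissue a change in the number of cells of a type and a change in RNA per cell cannot be told apart. The call of Sox18 held whichever mouse was left out, and calls were lost for Sox17 without mouse 81 or 94 (adjusted p up to 0.0610, without 81) and Cd93 without any mouse other than 93 (adjusted p up to 0.106, without 85).

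The mural cells around small vessels carry an ATP-sensitive potassium channel, and both of its subunit genes rose. Kcnj8, the pore subunit, measured 9.12, 9.91, 8.89 and 9.21 under vehicle and 10.73, 10.01, 10.49 and 9.95 under fenretinide, with vehicle mouse 83 just below the lowest fenretinide mouse. The change was 1.01 ± 0.22 (adjusted p = 0.0469). Abcc9, the regulatory subunit, changed by 0.71 ± 0.14 (0.0341), and vehicle mouse 83 again stood above the other vehicle mice. They were the 2 called genes of 15 measured pericyte and smooth muscle genes, against 1.34% of all genes. The median of the list was 0.04. Agtr1a, an angiotensin II receptor gene, changed by 0.95 ± 0.17 (0.0208). The pericyte gene Higd1b stood at 0.68 (0.0567). Calls were lost for Kcnj8 without any mouse other than 83 (adjusted p up to 0.122, without 85), Abcc9 without any mouse other than 83, 91 or 93 (adjusted p up to 0.0893, without 85) and Agtr1a without mouse 81, 85 or 94 (adjusted p up to 0.0632, without 94).

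Of the growth factor genes that act on vessels, Adm was called and Vegfa was not. Adm, which encodes the vasodilator adrenomedullin, measured 9.73, 10.27, 9.33 and 9.66 under vehicle and 11.76, 10.75, 10.64 and 11.60 under fenretinide. Mice 91 and 95 were well above the vehicle mice, and mice 93 and 94 were just above. The change was 1.44 ± 0.27 (adjusted p = 0.0290). Nrp2, a receptor for VEGF and semaphorins, changed by 0.69 ± 0.12 (0.0208). Adm and Nrp2 were the 2 called genes of 28 measured angiogenic factors and receptors, against 1.34% of all genes. The median of the list was 0.07. Vegfa, the main growth factor of vessels, stood at 0.30 ± 0.21 (0.582). Apln (1.07, 0.0725) and Pdgfb (0.84, 0.0511) had no overlap and were not called, but Pdgfb was without mouse 93 (0.0288). Vegfd, a lymphatic growth factor gene, stood at -1.22 (0.0502), with fenretinide mice at 8.94 to 9.99 against 10.60 to 10.88. Adm was also the 1 called gene of 26 measured hypoxia response genes, against 1.34% of all genes, and their median was -0.0047. Calls did not hold for Adm without mouse 81, 85 or 95 (adjusted p up to 0.0821, without 85) and Nrp2 without mouse 81, 83, 85 or 95 (adjusted p up to 0.0627, without 83).

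Mmp9, a gelatin-cutting protease, rose by 1.10 ± 0.15 (adjusted p = 0.00760), with 7.10 to 7.46 under vehicle and 8.15 to 8.82 under fenretinide. It was the 1 called gene of 12 measured neutrophil genes, against 1.34% of all genes. The median of the 12 was 0.24, and their mean level was highest in mouse 91 (1.12). The part of neutrophil genes in the Mmp9 change was not tested. Apart from Fcna, counted further on among the resident macrophage genes, the remaining large rises belonged to no single gene list. Tmem255a, a membrane protein gene, measured 5.96, 6.20, 5.49 and 5.83 under vehicle and 7.72, 7.78, 8.70 and 7.78 under fenretinide, with mouse 94 well above the rest, and changed by 2.12 ± 0.24 (0.00217). Clca2, a chloride channel accessory gene, changed by 1.97 ± 0.34 (0.0206). Tmem178, another membrane protein gene, and Car8, a carbonic anhydrase relative, changed by 1.61 ± 0.22 (0.00666) and 1.60 ± 0.26 (0.0159). Clca2, Tmem178 and Car8 were dim, with no vehicle mouse above 6.20. When tested alone, 1 of the 4 probe sets of Tmem255a and 1 of the 3 of Car8 were called, and all ran upward. Fcna, which encodes the complement lectin ficolin A, changed by 1.15 ± 0.18 (0.0143), and BC028528 by 1.12 ± 0.18 (0.0143). Cpm, a carboxypeptidase gene (1.30), Dcbld1 (1.16), the anion channel subunit gene Lrrc8c (1.07) and Cox6b2, a subunit of cytochrome oxidase (1.02), also rose, with adjusted p from 0.0178 to 0.0469. The calls of Mmp9, Tmem255a, Tmem178, Fcna and BC028528 held whichever mouse was left out. The threshold was missed for Clca2 without mouse 81, 83, 94 or 95 (adjusted p up to 0.0572, without 83), Car8 without mouse 81 or 83 (adjusted p up to 0.0537, without 83), Dcbld1 without mouse 81 or 94 (adjusted p up to 0.0515, without 81), Cox6b2 without mouse 83, 85, 94 or 95 (adjusted p up to 0.0632, without 94), Cpm without any mouse other than 86 or 93 (adjusted p up to 0.117, without 81) and Lrrc8c without any mouse other than 93 (adjusted p up to 0.101, without 85).

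Among the falls, 5 were of collagen genes. Collagens form the fibres and the basement membranes of the tissue, and all 21 measured collagen genes had a change below 0, from -1.29 to -0.01, also with quantile normalization or median centring. The 5 called lower compare with 0.929% of all genes, and 12 did not overlap between groups, against 8.75%. The median was -0.66, between -0.77 and -0.54 when 1 mouse was left out, with 2 to 7 calls, and -0.85 without mice 85, 86, 91 and 93. Col6a1 and Col6a2 encode chains of collagen VI, the mesh around adipocytes. Col6a1 measured 12.53, 12.58, 12.48 and 12.71 under vehicle and 11.78, 11.62, 11.37 and 11.53 under fenretinide. Col6a2 measured 13.30, 13.41, 13.27 and 13.61 and 12.47, 12.21, 11.54 and 12.21. At both, mouse 94 was the lowest and no fenretinide mouse reached a vehicle mouse. The changes were -1.0 ± 0.10 (adjusted p = 0.000913) and -1.29 ± 0.18 (0.00760). Col6a3, the third chain, had no overlap either, stood at -0.69 ± 0.17 (0.0669), and was called without mouse 91 (0.0387).

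Among the fibril collagens, Col3a1 measured 14.37, 14.26, 14.38 and 13.89 under vehicle and 13.58, 13.70, 13.36 and 13.57 under fenretinide, without overlap. Its change was -0.67 ± 0.12 (adjusted p = 0.0210). Col5a1 and Col5a2, which start fibrils, fell by 0.91 (0.0418) and 0.63 (0.0402). Col1a1, the main chain of collagen I, varied more. It measured 10.99, 10.70, 11.97 and 10.66 and 10.01, 10.53, 8.90 and 9.96, with vehicle mouse 85 high and fenretinide mouse 94 low, and stood at -1.23 ± 0.33 (0.0881). The calls of Col6a1 and Col6a2 held whichever mouse was left out, and the others were lost for Col3a1 without any mouse other than 86, 91 or 93 (adjusted p up to 0.0646, without 85), Col5a1 without any mouse other than 91 (adjusted p up to 0.104, without 83) and Col5a2 without any mouse other than 86 or 91 (adjusted p up to 0.0983, without 81).

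**Figure D4:**
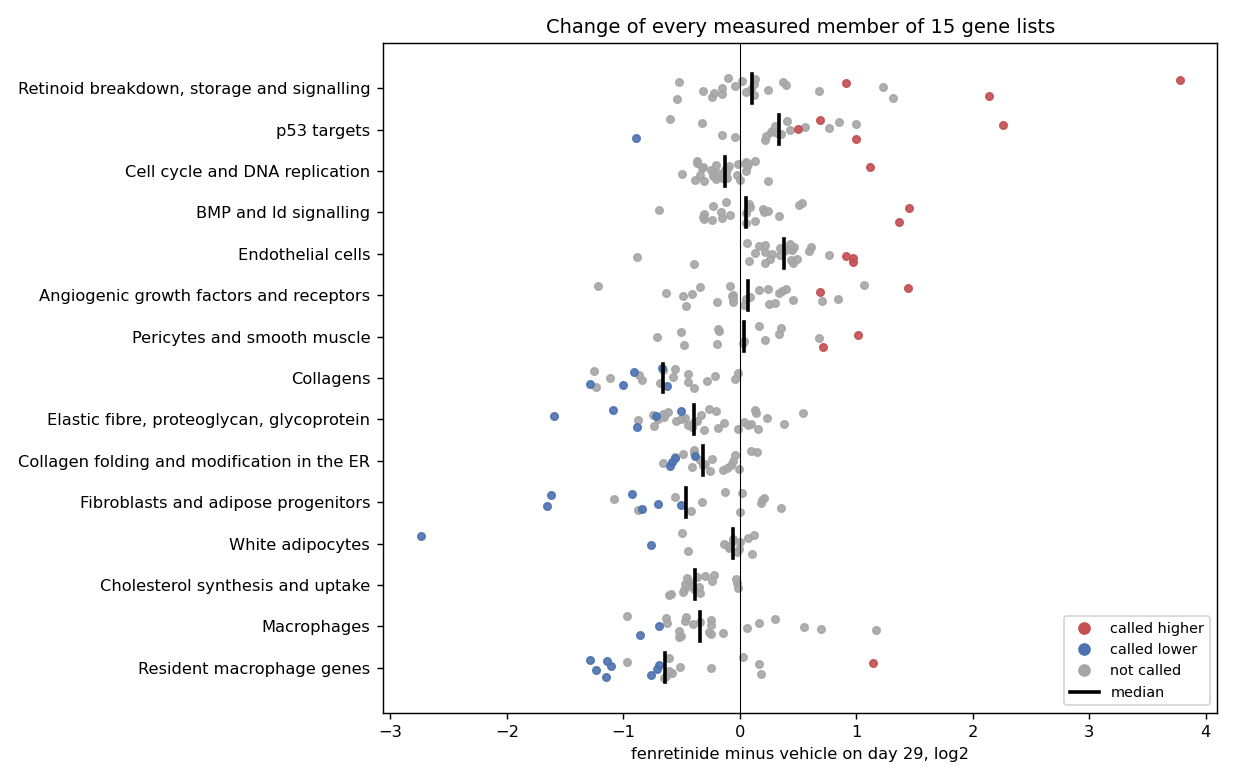
Change (horizontal axis, log2, fenretinide minus vehicle) of every measured member of 15 gene lists, 1 dot per gene, red where called higher, blue where called lower and grey where not called, with a black bar at each median. All 21 collagen dots lie at or left of 0 with a median of -0.66, and 25 of 27 endothelial dots lie right of 0 with a median of 0.38. The lists of collagen folding and of resident macrophage genes were drawn up after the values were seen.

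Of 35 measured genes of elastic fibres, proteoglycans and matrix glycoproteins 5 were called lower, against 0.929% of all genes, and none higher. The median was -0.39, and 9 lay above 0. There were 1 to 7 calls when 1 mouse was left out. Mfap4, a protein of elastic fibres, measured 8.36, 8.10, 8.69 and 7.61 under vehicle and 6.53, 7.08, 6.29 and 6.47 under fenretinide, a change of -1.60 ± 0.23 (adjusted p = 0.00882). Every fenretinide mouse was below every vehicle mouse. Fn1, the gene of fibronectin, changed by -1.09 ± 0.19 (0.0213) and Nid2, a basement membrane linker, by -0.88 ± 0.15 (0.0192). The proteoglycan genes Bgn and Lum changed by -0.72 ± 0.15 (0.0381) and -0.50 ± 0.11 (0.0423). Postn, a matricellular gene, stood above 0 at 0.55 (0.0963). Adamts5, a protease that cuts proteoglycans, measured 12.27, 12.58, 12.47 and 12.13 under vehicle and 10.81, 10.75, 10.68 and 10.97 under fenretinide. Both groups were tight and lay more than 1 unit apart, with a change of -1.56 ± 0.12 (4.73e-05). Adamts5 and Mmp9 were the 2 called genes of 25 measured matrix proteases and inhibitors, in opposite directions, against 1.34% of all genes. The calls of Mfap4 and Adamts5 held whichever mouse was left out, and calls were lost for Fn1 without mouse 81, 83 or 85 (adjusted p up to 0.0650, without 81), Nid2 without mouse 83 or 94 (adjusted p up to 0.0594, without 83), Bgn without any mouse other than 86 or 91 (adjusted p up to 0.0933, without 85) and Lum without any mouse other than 86 (adjusted p up to 0.111, without 85).

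Several genes of collagen folding in the endoplasmic reticulum were lower as well, in a list drawn up after the values were seen. Of its 23 measured members 4 were called lower, against 0.929% of all genes, and 10 did not overlap between groups, against 8.75%. The change was below 0 at 21, with a median of -0.31. As the members were picked with the values known, these counts do not measure an excess over all genes. Leaving out 1 mouse at a time gave 1 to 4 calls, and leaving out mice 85 and 93 gave 0. Fkbp14, a folding enzyme for collagen, measured 9.48, 9.72, 9.46 and 9.39 under vehicle and 9.02, 8.89, 8.95 and 8.80 under fenretinide, a change of -0.60 ± 0.09 (adjusted p = 0.00882). Its second probe set ran the other way. Crtap, part of the prolyl 3-hydroxylase complex, changed by -0.58 ± 0.10 (0.0164). P4hb, a subunit of prolyl 4-hydroxylase, and the calcium-binding protein gene Rcn2 changed by -0.39 ± 0.08 (0.0444) and -0.55 ± 0.10 (0.0228). Of the 2 probe sets of Rcn2, 1 ran in this direction, and with the mean of the probe sets neither Fkbp14 nor Rcn2 was called. The call of Fkbp14 held whichever mouse was left out, and calls were lost for Crtap without mouse 94 (adjusted p = 0.0513), P4hb without any mouse other than 91 (adjusted p up to 0.114, without 94) and Rcn2 without any mouse other than 85, 86 or 91 (adjusted p up to 0.0643, without 83).

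Of 18 measured genes of fibroblasts and adipose progenitors, the cells that make the matrix and new adipocytes, 6 were called lower, against 0.929% of all genes, and none higher. The groups did not overlap at 7, against 8.75% of all genes, and the median was -0.46. The number of calls was 1 to 6 when 1 mouse was left out. Sema3c, a secreted guidance factor, measured 11.88, 11.63, 11.85 and 11.95 under vehicle and 10.19, 10.03, 9.90 and 10.55 under fenretinide. The groups lay more than 1 unit apart, and the change was -1.66 ± 0.17 (adjusted p = 0.000913). S100a4, a calcium-binding protein of fibroblasts and some white blood cells, measured 9.68, 9.86, 9.02 and 9.34 and 8.34, 8.18, 7.45 and 7.44, a change of -1.62 ± 0.26 (0.0159). The surface protein genes Thy1, Cd248 and Cd55 fell by 0.92 (0.0210), 0.70 (0.0341) and 0.84 (0.0349), and Lum is the sixth. Fzd4, a Wnt receptor gene, fell by 0.83 (0.0123), Ptch1, the hedgehog receptor gene, by 0.72 (0.0440), and Cdkn2b, the cell cycle inhibitor p15, by 1.11 (0.00882). Of the 3 probe sets of Ptch1, 1 ran in this direction. The calls of Sema3c, Fzd4 and Cdkn2b held whichever mouse was left out. Adjusted p rose above the threshold for S100a4 without mouse 81, 83 or 94 (adjusted p up to 0.0537, without 83), Thy1 without mouse 81, 85, 94 or 95 (adjusted p up to 0.0649, without 85), Cd248 without any mouse other than 86 or 91 (adjusted p up to 0.0893, without 85), Cd55 without any mouse other than 86, 91 or 93 (adjusted p up to 0.0895, without 85) and Ptch1 without any 1 of the 8 mice (adjusted p up to 0.116, without 85).

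Lep, the gene of leptin, had the largest fall of all called genes. It measured 13.01, 13.41, 13.20 and 13.13 under vehicle and 11.55, 11.05, 8.93 and 10.26 under fenretinide. The vehicle mice were close together, while the fenretinide mice spread over more than 2 units with mouse 94 the lowest. The change was -2.74 ± 0.55, a 6.68-fold fall (adjusted p = 0.0354). Npr3, the clearance receptor for natriuretic peptides, ordered the fenretinide mice the same way, with 12.43, 12.16, 10.71 and 11.69 against 13.58, 13.81, 13.69 and 13.76 under vehicle. It changed by -1.96 ± 0.36 (0.0264). The calls were lost for Lep without any mouse other than 91 or 93 (adjusted p up to 0.0893, without 85) and Npr3 without any mouse other than 86, 91 or 93 (adjusted p up to 0.0709, without 83). Without mice 85, 86, 91 and 93 the changes were -3.61 (0.0913) and -2.50 (0.0873).

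Of 15 measured genes that define white adipocytes, 2 were called lower, against 0.929% of all genes, and the median was -0.06. The 2 were Lep and the amino acid transporter gene Slc7a10 (-0.76 ± 0.16, adjusted p = 0.0439). Adipoq, near the bright end of the array, stood at -0.03 ± 0.07 (0.922). Pparg, the master regulator of adipocytes, stood at -0.49 ± 0.19 (0.247), with mouse 91 the lowest. Cpt1a, which admits fatty acids to mitochondria, measured 11.02, 11.03, 10.91 and 11.27 under vehicle and 10.37, 10.37, 10.39 and 10.78 under fenretinide, a change of -0.58 ± 0.12 (0.0354). It was the 1 called gene of 23 measured fatty acid oxidation genes, against 1.34% of all genes. Of the 23 genes, 21 lay above 0, with a median of 0.28, and 0.11 without fenretinide mouse 93. Its brain-type relative Cpt1c rose by 0.83 ± 0.16 (0.0341). Insig2, which restrains sterol synthesis, fell by 0.38 (0.0205), and Igfbp5, a binding protein of insulin-like growth factors, by 1.04 (0.0345). All 18 measured cholesterol genes lay below 0 with a median of -0.38 and no call, and the median was -0.12 without vehicle mouse 86. Degs1, the desaturase that fenretinide is known to inhibit, stood at -0.54 (0.0511) and Cers5, a ceramide synthase, at -0.50 (0.0527), both without overlap, and both were called without mouse 91 (0.0307 and 0.0387). No member of the 23 ceramide genes was called. The brown fat genes Ucp1 (1.62, 0.793) and Cidea (1.46, 0.493) were highest in the mice with muscle genes. Calls were lost for Slc7a10 without any mouse other than 86 (adjusted p up to 0.111, without 83), Cpt1a without any mouse other than 95 (adjusted p up to 0.0865, without 94), Cpt1c without any mouse other than 81 or 93 (adjusted p up to 0.0872, without 85), Insig2 without mouse 81, 83 or 94 (adjusted p up to 0.0537, without 83) and Igfbp5 without any mouse other than 86 or 91 (adjusted p up to 0.0893, without 85).

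Genes of tissue-resident macrophages, in a list drawn up after the values were seen, fell in part. Of 20 measured 8 were called lower, against 0.929% of all genes, and 1, Fcna, higher, against 0.412%. The groups did not overlap at 10, against 8.75% of all genes, and the median was -0.64. Because the list was drawn up with the values known, these counts do not measure an excess over all genes. With 1 mouse left out there were 4 to 12 calls. F13a1, which encodes a coagulation factor subunit, measured 12.74, 12.69, 12.26 and 12.13 under vehicle and 11.54, 11.30, 11.13 and 11.42 under fenretinide. The change was -1.10 ± 0.14 (adjusted p = 0.00363), and vehicle mice 81 and 83 were above vehicle mice 85 and 86. Cd209d, a C-type lectin gene, changed by -1.15 ± 0.14 (0.00343) and Clec4a3, another, by -1.14 ± 0.17 (0.0123). The receptor-like gene Fcrls changed by -1.23 ± 0.22 (0.0210) and the carbonyl reductase gene Cbr2 by -1.28 ± 0.22 (0.0192). Folr2, a folate receptor, Sucnr1, the succinate receptor, and the transcription factor gene Maf fell by 0.70 (0.0415), 0.71 (0.0341) and 0.77 (0.0402). Cd163, a scavenger receptor of haemoglobin, stood at -0.96 ± 0.28 (0.111), where vehicle mouse 86 lay among the fenretinide mice, and was called without that mouse (-1.26, 0.0211). Of the 23 general macrophage genes, Folr2 and Lgals3 (-0.86, 0.0356) were called lower, against 0.929% of all genes. In this list 17 lay below 0, and the median was -0.34. The calls of F13a1, Cd209d, Clec4a3 and Fcna held whichever mouse was left out. Calls did not hold for Fcrls without mouse 81, 83, 94 or 95 (adjusted p up to 0.0652, without 83), Cbr2 without mouse 81, 83 or 94 (adjusted p up to 0.0594, without 83), Folr2 without any mouse other than 85 or 86 (adjusted p up to 0.102, without 81), Sucnr1 without any mouse other than 86 (adjusted p up to 0.0843, without 81), Maf without any mouse other than 86 (adjusted p up to 0.106, without 85) and Lgals3 without any mouse other than 91 (adjusted p up to 0.0882, without 81).

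**Figure D5:**
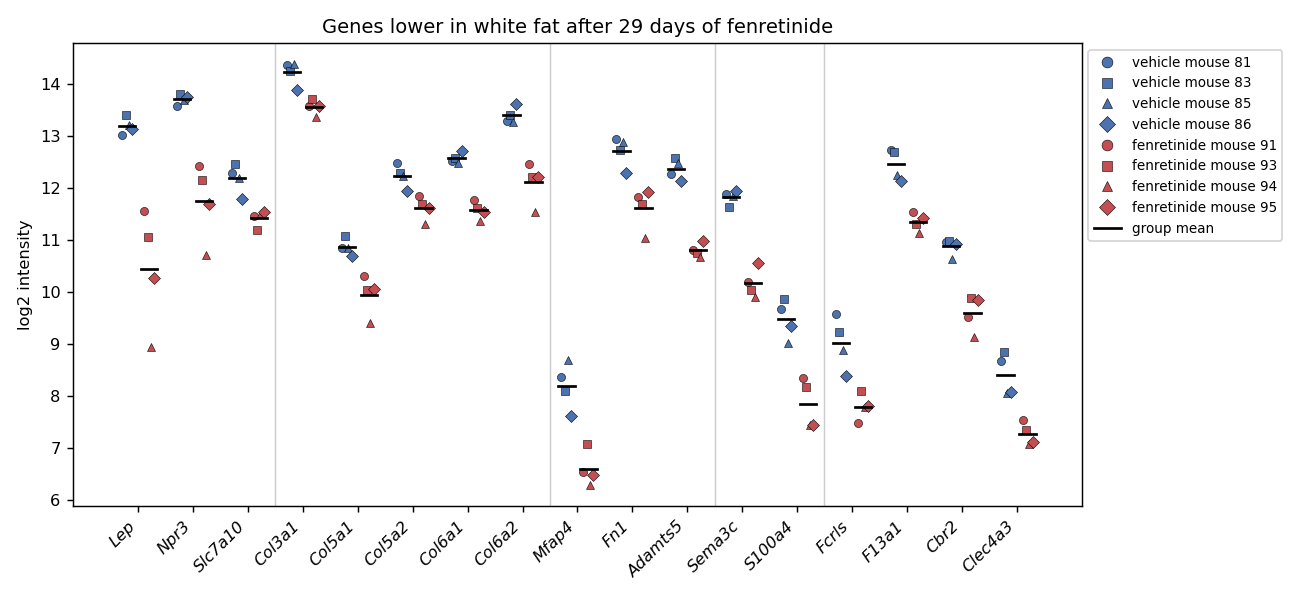
Log2 intensity (vertical axis) of 17 genes called lower, in each vehicle mouse (blue) and fenretinide mouse (red), with a shape per mouse and a bar at each group mean. The groups do not overlap at any gene shown, and mouse 94 is the lowest at Lep (-2.74), Npr3 (-1.96) and all 5 collagens.

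A few other immune genes were lower. Mcpt4, a mast cell protease gene, fell by 0.84 (adjusted p = 0.0423). It was the 1 called gene of 8 measured for mast cells, against 1.34% of all genes. Ighm, the heavy chain of IgM, fell by 1.81 (0.0462), from 13.21, 13.34, 12.82 and 12.76 to 11.71, 11.63, 11.35 and 10.20, with mouse 95 the lowest. Of its 11 probe sets 4 ran in this direction. Tsc22d3, a glucocorticoid-induced gene, fell by 0.83 (0.0341) and the lysosomal protease gene Lgmn by 0.56 (0.0402). The threshold was missed for Mcpt4 without any mouse other than 86 (adjusted p up to 0.112, without 94), Ighm without any mouse other than 91 (adjusted p up to 0.114, without 83), Tsc22d3 without any mouse other than 86 or 94 (adjusted p up to 0.0893, without 85) and Lgmn without any mouse other than 86 (adjusted p up to 0.0984, without 83).

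The other large falls belonged to no single list. Olfm1, a secreted glycoprotein gene, measured 11.07, 11.21, 10.92 and 11.91 under vehicle and 9.66, 9.93, 8.73 and 10.10 under fenretinide, a change of -1.67 ± 0.32 (adjusted p = 0.0318). Mouse 94 was the lowest and vehicle mouse 86 the highest. Gpr160, an orphan receptor gene, fell by 1.42 (0.0446), Ankrd29 by 1.40 (0.0354), Wfdc21 by 1.35 (0.0440) and Eepd1 by 1.32 (0.0246). Gamt, the last enzyme of creatine synthesis, fell by 1.22 (0.0355) and Cdsn, an adhesion protein of skin, by 1.16 (0.0435). Pdlim2, a cytoskeletal protein gene, and Prkag3, a subunit of AMP-activated kinase typical of skeletal muscle, both fell by 1.15 (0.0246, 0.0210). Prkag3 measured 7.12, 7.08, 6.52 and 6.46 under vehicle and 5.73, 5.95, 5.37 and 5.55 under fenretinide, so vehicle mice 81 and 83, with low muscle genes, were the highest. Adjusted p rose above the threshold for Olfm1 without any mouse other than 91, 93 or 95 (adjusted p up to 0.0720, without 83), Gpr160 without any mouse other than 93 (adjusted p up to 0.115, without 83), Ankrd29 without any mouse other than 85, 86 or 93 (adjusted p up to 0.0920, without 81), Wfdc21 without any mouse other than 91 (adjusted p up to 0.116, without 85), Eepd1 without any mouse other than 86, 91 or 95 (adjusted p up to 0.0720, without 83), Gamt without any mouse other than 91 (adjusted p up to 0.0893, without 85), Cdsn without any mouse other than 95 (adjusted p up to 0.107, without 94), Pdlim2 without any mouse other than 85, 86 or 91 (adjusted p up to 0.0699, without 81) and Prkag3 without mouse 81, 83, 94 or 95 (adjusted p up to 0.0652, without 83).

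The study also sampled white fat on day 15, from 3 vehicle mice and 3 fenretinide mice at the same dose. The difference between the day 29 change and the day 15 change was called at 242 genes (1.33%). For the retinoid genes the difference was not called. Cyp26b1 changed by 4.05 on day 15, a difference of -0.28 ± 0.28 (adjusted p = 0.670), and Lrat by 1.60, a difference of 0.54 ± 0.25 (0.322). Eda2r changed by 2.20 on day 15, a difference of 0.06 ± 0.29 (0.944). For Lep the day 15 change was -1.28 (0.290), and the difference of -1.46 ± 0.84 (0.428) was not called. Neither was that of Sox17 (1.04 ± 0.24, 0.0592).

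The changes of several matrix genes differed between the days. Col6a1 changed by -0.09 on day 15 and Col6a2 by 0.0, with differences of -0.91 ± 0.16 (adjusted p = 0.0121) and -1.29 ± 0.27 (0.0385). Mfap4 changed by 0.62 on day 15, a difference of -2.21 ± 0.35 (0.00543). Adamts5 was already lower on day 15 (-0.72, 0.0104), and the difference was -0.84 ± 0.18 (0.0412). Sema3c (-1.37 ± 0.26, 0.0232), Rcn2 (-0.69 ± 0.15, 0.0464) and Cpt1a (-1.02 ± 0.18, 0.0121) differed as well, as did Pdlim2 (-1.92 ± 0.32, 0.00917). Id1 differed upward by 1.12 ± 0.24 (0.0412).

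The vehicle mice of the 2 days also stood at different levels for several of these genes. Vehicle values of Col6a2 were 12.25 to 12.60 on day 15 and 13.27 to 13.61 on day 29, while fenretinide mice of day 29 were at 11.54 to 12.47. For Sema3c the vehicle ranges were 10.97 to 11.24 and 11.63 to 11.95, and for Lep 11.15 to 12.14 and 13.01 to 13.41. Id1 ran the opposite way, with vehicle mice at 11.86 to 12.36 on day 15 and 10.69 to 11.06 on day 29, and fenretinide mice of day 29 at 11.93 to 12.44. Vehicle ranges of Sox18 were 10.73 to 11.33 on day 15 and 10.19 to 10.49 on day 29, with fenretinide mice of day 29 at 11.10 to 11.44. Those of Sox17 were 10.23 to 10.27 and 9.37 to 9.84. For Tbx3 they were 7.70 to 8.63 and 6.81 to 7.29, with fenretinide at 8.04 to 8.79. For Pdlim2 they were 8.31 to 8.99 and 9.34 to 9.95, with fenretinide at 8.42 to 8.78. The difference between the vehicle groups was not tested.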

How the data were processed

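The authors' deposited values are linear intensities of 45101 Affymetrix probe sets on 74 arrays; the submitters' processing notes name RMA (robust multi-array averaging, which corrects background, normalizes arrays together and summarizes probes), with no version. Replicate arrays correlated at 0.978 to 0.994 within the day 29 groups, and no 2 of the 74 arrays were identical. The number of arrays limits precision. Intensities were taken to log2. Of 34945 probe sets with 1 gene symbol, that with the highest mean over all arrays stood for each of 18193 genes. The 64 control probe sets, 932 probe sets with several symbols and 9160 with none were left out.

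Changes were tested with limma 3.58.1 (R 4.3.3) on the 14 white adipose arrays of days 15 and 29, which share 1 estimate of spread, and checked on simulated data. P-values were adjusted over all genes (Benjamini-Hochberg). The labels say only that each array is a separate mouse. Genes were named by rule: the 20 largest rises and falls among calls without overlap, called members of 51 gene lists, up to 3 further members of lists with at most 2 calls, and a fixed set. The members and lists were chosen with earlier results of these data known, and 2 lists were added after these values were seen. Chosen outside the rule after their values were seen were Rarres1, Rdh10, Aldh1a1, Sesn3, Plk2, Trp53inp1, Ier5l, Hbegf, Smad3, Plvap, Robo4, Emcn, Agtr1a, Postn, P4hb, Crtap, Fkbp14, Rcn2, Cpt1c, Insig2, Clec4a3, F13a1, Sucnr1, Maf, Cdkn2b and Ptch1. Alternatives were other normalizations, filters, probe set rules, variance models and subsets of mice.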

Additional observations from a re-analysis of the deposited data

Results flagged for a closer look

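Among the named genes, 264 groups of 4 mice were examined for a single mouse far from the others, and 11 were found. Chance alone gives about 5% of groups, and 11 of 264 is below that share. The flags listed here are therefore no more than chance gives. Fenretinide mouse 93 was lower than its group at 3 p53 targets, with 11.89 for Cdkn1a, 10.13 for Mdm2 and 9.56 for Zmat3. Fenretinide mouse 94 was higher than its group for Trp53inp1 (11.44) and Tmem255a (8.70), fenretinide mouse 91 for Id3 (11.70) and fenretinide mouse 95 for Cpt1a (10.78). Vehicle mouse 83 stood high for Abcc9 (10.64) and vehicle mouse 86 high for Apln (9.18) and low for Cd163 (9.76). Vehicle mouse 85 stood low for Cbr2 (10.64).

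At 9 named genes the day 29 change differed from the day 15 change in the limma test of that difference. It was larger by 1.12 for Id1 (adjusted p = 0.0412). It was -0.84 for Adamts5 (0.0412), -0.91 for Col6a1 (0.0121), -1.29 for Col6a2 (0.0385), -2.21 for Mfap4 (0.00543), -0.69 for Rcn2 (0.0464), -1.37 for Sema3c (0.0232), -1.02 for Cpt1a (0.0121) and -1.92 for Pdlim2 (0.00917).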

How the results depend on the processing

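No paired analysis was possible because the vehicle and fenretinide mice of day 29 share no numbers. The called genes that were tested kept their direction in each alternative that gives 1 value per gene. Where the groups do not overlap, subsets of mice cannot turn the direction, so those alternatives do not test it. Of the 143 called genes with several probe sets, 31 had a probe set with a change in the opposite direction, among them Cd93, Fkbp14, Ighm, Mdm2, Ptch1 and Rcn2. The 244 calls (75 higher, 169 lower) stayed within 1.5 times that count under quantile normalization (274), median centring (294), the mean of a gene's probe sets (271), a trended and robust variance (279), array weights (313) and a fold of at least 1.5 (179). With the dimmer 50% of genes dropped there were 402 calls (126 higher, 276 lower), with fewer genes tested, and 80 day differences in place of 242. With every probe set tested by itself 404 were called (128 higher, 276 lower). Array weights gave 746 day differences. The 8 arrays of day 29 fitted alone, with fewer samples, gave 46 calls (17 higher, 29 lower), 43 of them among the 244, and no day comparison. Clec4a3, Fkbp14 and Fzd4, called whichever mouse was left out, were not called there. Without vehicle mouse 85 and fenretinide mouse 93 there were 42 calls (20 higher, 22 lower) and 127 day differences. Without vehicle mouse 86 and fenretinide mouse 95 there were 122 (24 higher, 98 lower). Without vehicle mice 85 and 86 and fenretinide mice 91 and 93, an alternative chosen after seeing the data, there were 64 (9 higher, 55 lower) and 107 day differences. Leaving out 1 mouse at a time gave 51 to 237 calls, 24 to 68 higher and 25 to 185 lower, and 143 to 262 day differences. The causes were not tested.

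Among named genes that were not called, values near 0 changed sign. Mki67 stood at 0.53 without mice 86 and 95, at 0.55 without mice 85, 86, 91 and 93, and between -0.38 and 0.42 with 1 mouse left out. Id2 stood at -0.059 without mice 85, 86, 91 and 93. Adipoq stood at 0.024 without mice 85 and 93 and between -0.060 and 0.0047 with 1 mouse left out, and Crabp2 between -0.036 and 0.25. Over these alternatives, called named genes kept the call 1150 times and kept the direction alone 632 times.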
